A study of Homo sapiens with 6 samples.

Results

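The proteasome genes were the rows of the deposited table whose symbol was POMP or began with PSMA, PSMB, PSMC, PSMD, PSME, PSMF or PSMG followed by a number, kept where the 6 libraries averaged 1 TPM or more. The names matched 49 of the 35473 rows, and 45 of them reached that mean. TPM is the share of a library's transcripts that belongs to a gene, corrected for transcript length, so levels can be compared between genes. The treated group was IMR32, an established human neuroblastoma line, given 5 µM CBR-470-1 for 24 h. The control group was the same line given the same volume of the DMSO vehicle for 24 h. Each group had 3 libraries from independent biological replicates. IMR32 is a single tumour line. The series title links glycolysis to the KEAP1-NRF2 pathway, and the comparison asked which of these transcripts differed after CBR-470-1.

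The proteasome is the protease that degrades ubiquitin-tagged proteins. Its 20S core is a barrel of alpha and beta subunit rings with the proteolytic sites inside the beta rings, and its 19S cap recognises, unfolds and feeds in the substrate through a base that holds a ring of ATPases and through a lid that removes the ubiquitin. The inducible subunits PSMB8, PSMB9 and PSMB10 replace the catalytic subunits after interferon and favour peptides for antigen presentation. NRF1, encoded by NFE2L1, is the transcription factor known for restoring proteasome genes when the protease is inhibited, and NRF2 has been linked to some of them under oxidative stress.

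The 4 rows under 1 TPM were 3 of the inducible or tissue-specific beta subunits and 1 alpha subunit. PSMB8 and the germ-cell subunit PSMA8 were listed at 0 in all 6 libraries. PSMB9 was listed at 0.0169, 0 and 0.103 TPM in CBR-470-1 and at 0.0189, 0.0586 and 0.0149 TPM in DMSO. PSMB11, the thymus-specific subunit, was listed at 0 except for 0.0259 TPM in CBR-470-1 replicate 3. The lowest row above the minimum was PSMD5, with a mean of 2.29 TPM and single libraries between 1.62 and 2.98 TPM. PSMG4 followed at 15.8 TPM, and the highest mean under the minimum was that of PSMB9, 0.0353 TPM. A value of 0 in this table is a listing and was not taken as absence of the transcript. PSMB8, PSMB9 and TAP1 lie in the MHC region of chromosome 6, and whether the index held alternative haplotypes of it, which could take reads from these rows, is not given in the sources used here.

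Levels differed widely between the 45 genes, by 217-fold from PSMD5 to PSMA7 at 496 TPM, with a median of 126 TPM. Within the 20S core the 7 alpha subunits lay within 2.15-fold of each other, between 230 and 496 TPM. The catalytic subunits PSMB5, PSMB6 and PSMB7 averaged 254, 141 and 208 TPM. PSMB10, the inducible counterpart of PSMB7, averaged 20.1 TPM. The 8 lid genes within the naming rule spanned 63.4 to 131 TPM, whereas the 6 ATPase genes spanned 67.5 to 455 TPM. PSMC5, an ATPase, and PSMA4, an alpha subunit, stood at the same 455 TPM, below PSMA7 and above the ubiquitin receptor PSMD4 at 429 TPM. Replicates lay close together, with a median coefficient of variation of 3.06% over the genes in CBR-470-1 and 3.98% in DMSO. These levels chose the genes and are given as a description.

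All 11 adrenergic neuroblastoma markers were above the minimum, with MYCN at 1078 to 1130 TPM in CBR-470-1 and 1134 to 1236 TPM in DMSO. Of these markers 2 fell in limma, DBH with a log2 fold change of -0.53 (adjusted p = 0.0247) and CHGA with -0.23 (adjusted p = 0.0468). After the GC and length correction described further on, DBH kept its call (-0.475, limma adjusted p = 0.0273) and CHGA lost it (-0.15, limma adjusted p = 0.0546). Before correction 9 of the 11 were negative. Of all 13470 genes averaging 1 TPM or more, 0.839% fell in limma and 5803 were negative. The part of these markers in the proteasome values was not tested. All 9 blood and immune markers were under 1 TPM, and CD3E and HBB were listed at 0 throughout. Of 9 fibroblast and epithelial markers 2 averaged over 1 TPM without a call, LUM at 6.49 to 6.99 TPM in CBR-470-1 and 5.26 to 7.13 TPM in DMSO, and COL1A1 at 2.59 to 2.99 TPM in CBR-470-1 and 2.62 to 3.04 TPM in DMSO. The 6 columns summed to between 972453 and 973696 TPM. How many reads lie behind a TPM value is unknown, since the unit holds no depth.

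Of the 45 proteasome genes 33 had positive fold changes in CBR-470-1, and 4 of the 5 that passed belong to the 19S cap. PSMD12 and PSMD1 of the 19S, the ATPase PSMC2, the ubiquitin receptor PSMD4 and the assembly factor POMP rose, each by 1.17- to 1.29-fold in mean TPM. Of the 45 genes 5 rose and 0 fell in limma at an adjusted p under 0.05 over all genes. Over all 13470 tested genes, 1.13% rose and 0.839% fell by the same rule, 152 and 113 genes. This split became 124 and 237 with median centring and 155 and 218 with the GC and length correction described further on. At an unadjusted p under 0.05, 20 of the 45 were higher and 2 were lower, against 13.8% and 9.65% of all tested genes. Positive fold changes made up 56.9% of all tested genes. Counts of smaller groups below are read against these shares. In 21 genes every CBR-470-1 library lay above every DMSO library, and in 2 genes every one lay below, against 17.7% and 12.5% of all tested genes. The fold changes, given here as differences of log2(TPM + 1), had a median of 0.08 for the 45 genes and 0.03 for all tested genes. The genes were chosen by name and level with results of these data known, so the list as a whole was given no test.

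The summed TPM of the 45 genes was 8516.2, 8512.1 and 8332.4 in CBR-470-1, against 7896.9, 7832.1 and 7767.1 in DMSO. The 3 treated sums lay above the 3 control sums, and the ratio of the means was 1.08. The 20 genes of the 19S family summed to 3326.2, 3311.9 and 3312.4 TPM in CBR-470-1, against 2974.1, 3005.9 and 2975.8 TPM in DMSO. The 15 genes of the 20S core summed to 4236.3, 4239.0 and 4080.8 TPM in CBR-470-1, against 3986.9, 3895.6 and 3884.2 TPM in DMSO. The ratios were 1.11 for the 19S and 1.07 for the 20S core. The 10 activator, inhibitor and assembly genes summed to 953.7, 961.2 and 939.2 TPM in CBR-470-1, against 936.0, 930.6 and 907.2 TPM in DMSO, a ratio of 1.03. The difference between the families was not tested.

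**Figure D1:**
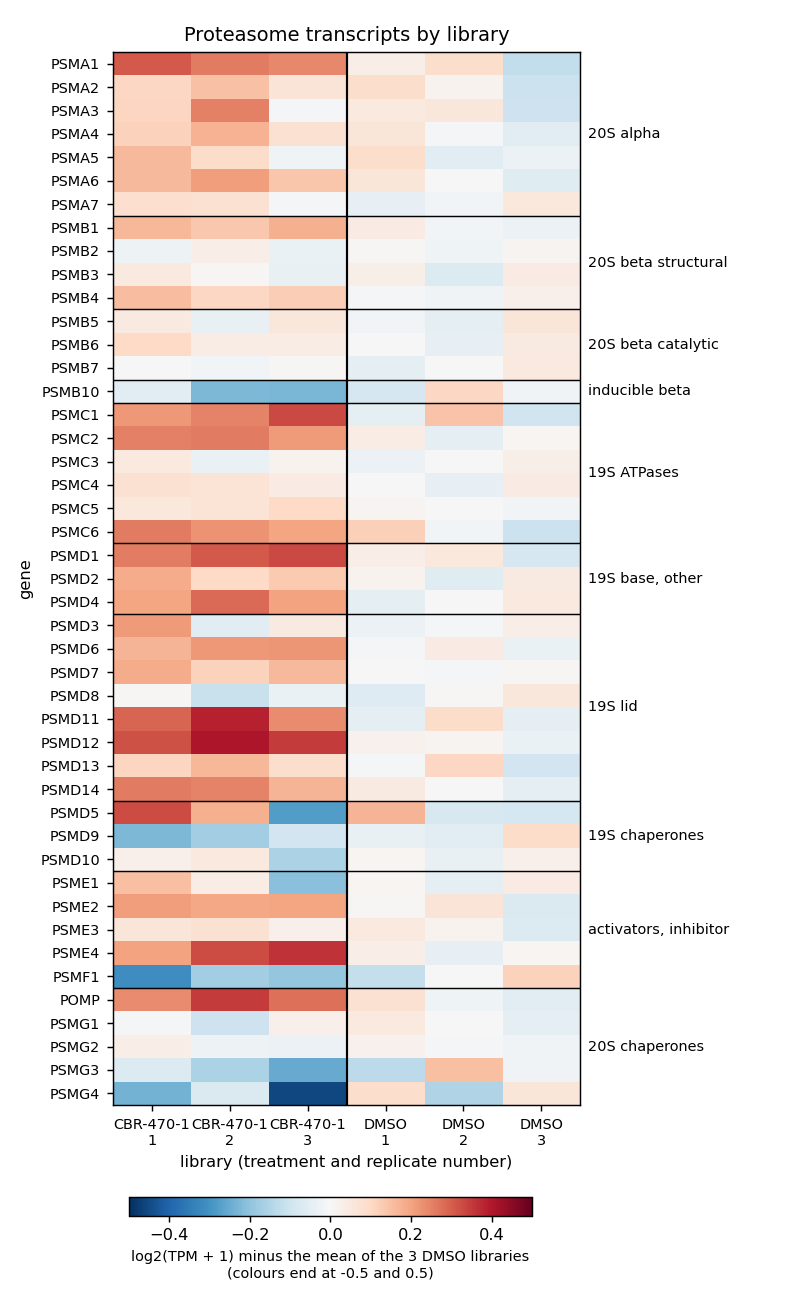
Heat map of the 45 proteasome genes (rows, grouped by role) in the 6 libraries (columns). The colour is log2(TPM + 1) minus the mean of the 3 DMSO libraries, red for higher and blue for lower. The CBR-470-1 columns are red through most of the 19S rows and blue for PSMB10, PSMD9, PSMF1, PSMG3 and PSMG4.

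The lid gene PSMD12, which encodes a scaffold subunit, had the largest fold change of the 45. It had 102, 108 and 104 TPM in CBR-470-1, against 82.4, 82.0 and 79.4 TPM in DMSO. The groups did not overlap, and the gap between them was wider than the spread within either group. The log2 fold change was 0.36 (SE 0.0439, limma adjusted p = 0.0164). In GRCh38 with GENCODE 29 models, PSMD12 (ENSG00000197170.9) lies on the minus strand of chromosome 17 from 67337916 to 67366627. Each value covers a whole gene and does not resolve exons, introns or UTRs.

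PSMD1, the large scaffold subunit of the base, had 158, 164 and 166 TPM in CBR-470-1, against 135, 137 and 124 TPM in DMSO. PSMD4, a base subunit that binds ubiquitin chains, had 453, 481 and 454 TPM in CBR-470-1, against 382, 395 and 409 TPM in DMSO. In both genes the lowest treated library lay above the highest control library. Their log2 fold changes were 0.30 for PSMD1 (SE 0.0496, limma adjusted p = 0.0378) and 0.23 for PSMD4 (SE 0.0410, limma adjusted p = 0.0447). PSMD1 (ENSG00000173692.12) spans 231056864 to 231172827 on chromosome 2 and PSMD4 (ENSG00000159352.15) spans 151254703 to 151267479 on chromosome 1, both on the plus strand. PSMD2, the other large base scaffold, had a value of 0.14 without overlap (adjusted p = 0.110 in limma).

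All 6 ATPase genes of the base had positive fold changes and 1 of them passed. PSMC2 had 73.9, 74.1 and 71.8 TPM in CBR-470-1, against 63.4, 59.8 and 62.3 TPM in DMSO. Its treated libraries were within 3 TPM of each other and all above the controls, with a log2 fold change of 0.24 (SE 0.0456, limma adjusted p = 0.0493). PSMC2 (ENSG00000161057.11) spans 103344254 to 103369395 on the plus strand of chromosome 7. It overlaps DNAJC2 on the other strand, a gene with a mean of 59.1 TPM, and no strand setting is given in the sources used here, so reads from their shared stretch may not be separable.

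PSMC1 had 275, 281 and 298 TPM in CBR-470-1, against 229, 261 and 221 TPM in DMSO, without overlap (log2 fold change 0.27, limma adjusted p = 0.0822). This value is uncertain because the row of its pseudogene PSMC1P5 stood at a like level, with 297, 342 and 313 TPM in CBR-470-1, against 232, 277 and 223 TPM in DMSO. Reads of a gene and a near-identical copy can be split between their rows. For PSMC6 the log2 fold change was 0.23 (limma adjusted p = 0.0899). PSMC5, PSMC4 and PSMC3 were nearer 0, at 0.07, 0.06 and 0.01. Pseudogene rows of 11 other proteasome genes held at most 0.722% of the level of their gene.

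In the lid, PSMD12 was joined by PSMD11, PSMD14, PSMD6 and PSMD7 in having no overlap between the groups. None of these 4 passed at the 1 TPM minimum. PSMD11, a scaffold subunit, had 104, 111 and 99.8 TPM in CBR-470-1, against 81.8, 90.2 and 81.8 TPM in DMSO (log2 fold change 0.31, SE 0.0599, limma adjusted p = 0.0562). PSMD14, the deubiquitinase of the lid, had 92.2, 91.4 and 86.5 TPM in CBR-470-1, against 79.2, 76.9 and 74.4 TPM in DMSO (log2 fold change 0.23, limma adjusted p = 0.0629). PSMD6 and PSMD7 had log2 fold changes of 0.20 and 0.15. PSMD13 and PSMD3 had 0.12 and 0.07, and PSMD8 was the lid gene with a negative value, -0.05. The groups overlapped in those last 3 genes.

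The 3 chaperones that assemble the 19S base, which carry PSMD names, had log2 fold changes from -0.17 to 0.08. PSMD9 had 39.8, 41.2 and 43.6 TPM in CBR-470-1, against 45.5, 45.0 and 49.8 TPM in DMSO. Every treated library lay below every control library (log2 fold change -0.17, limma adjusted p = 0.166). PSMD5, at 2.98, 2.58 and 1.62 TPM in CBR-470-1 and 2.56, 2.00 and 1.98 TPM in DMSO, was too variable to place, with a 95% confidence interval of -0.34 to 0.50. PSMD10 had a log2 fold change of -0.03.

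**Figure D2:**
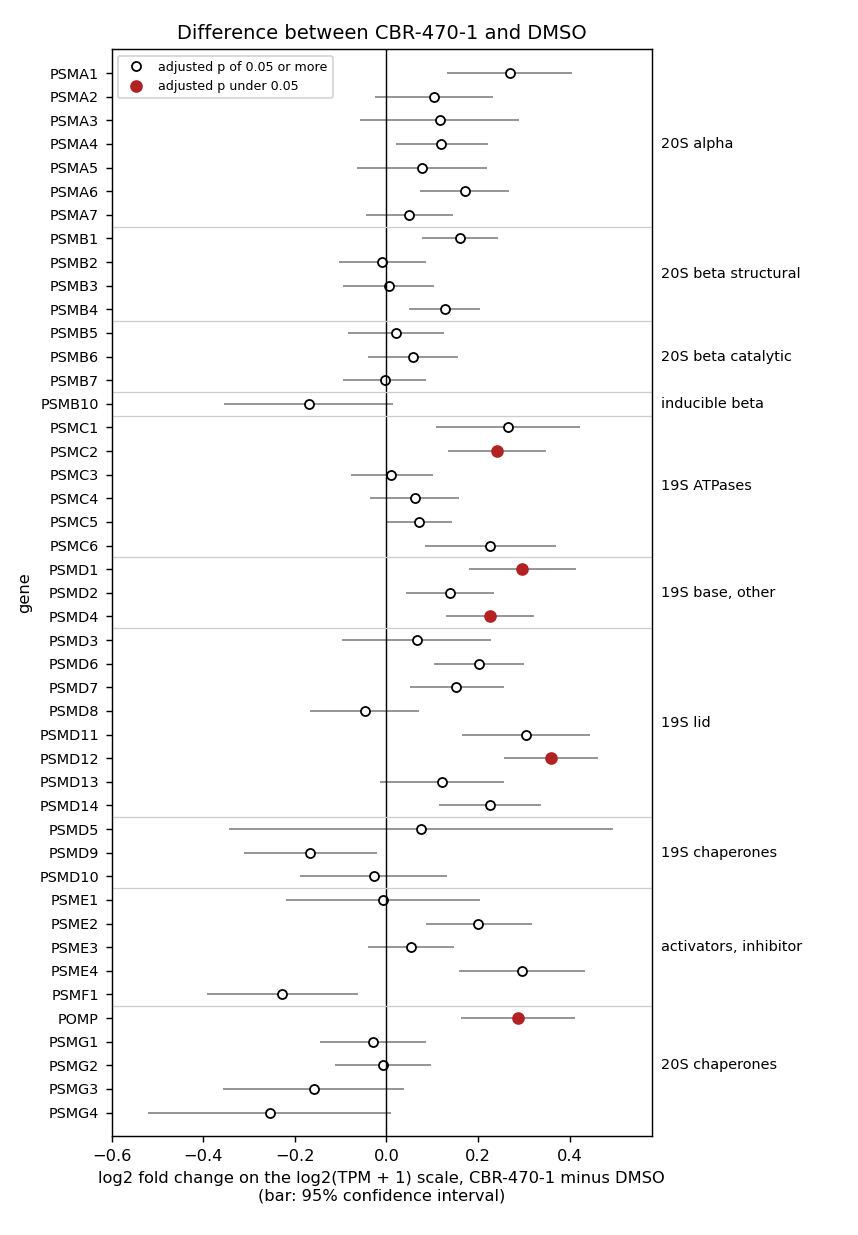
Log2 fold change of each of the 45 genes, CBR-470-1 minus DMSO on the log2(TPM + 1) scale, with its 95% confidence interval from limma. Filled points mark the 5 genes with an adjusted p under 0.05 over all tested genes, PSMD12, PSMD1, POMP, PSMC2 and PSMD4.

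No gene of the 20S core passed at the 1 TPM minimum. Of its 15 genes, 12 had positive fold changes, 5 were higher and 0 lower at an unadjusted p under 0.05 in limma, and the median was 0.08. All 7 alpha subunit genes were positive, from 0.05 for PSMA7 to 0.27 for PSMA1. PSMA1 had 263, 255 and 252 TPM in CBR-470-1, against 218, 226 and 195 TPM in DMSO (SE 0.0582, limma adjusted p = 0.0650). PSMA6 had 389, 402 and 383 TPM in CBR-470-1, against 363, 347 and 334 TPM in DMSO (log2 fold change 0.17, limma adjusted p = 0.0775). The groups did not overlap in PSMA1, PSMA4 and PSMA6 and did overlap in the other 4 alpha genes. After the GC and length correction described further on, the median of the alpha genes was 0.05 instead of 0.12. PSMA6 then had 0.07 (limma adjusted p = 0.207) and PSMA5 -0.02, while PSMA1 had 0.26 and PSMA7 0.11.

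Of the 4 structural beta subunits, 3 had positive fold changes, 1 of them near 0. PSMB1 had 283, 277 and 285 TPM in CBR-470-1, against 259, 249 and 247 TPM in DMSO (log2 fold change 0.16, limma adjusted p = 0.0663). PSMB4 had 349, 337 and 342 TPM in CBR-470-1, against 312, 311 and 320 TPM in DMSO (log2 fold change 0.13, limma adjusted p = 0.0877). Neither passed, although the groups did not overlap in either gene. PSMB2 and PSMB3 had log2 fold changes of -0.01 and 0.01, with overlapping libraries.

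The catalytic subunits of the constitutive core showed no difference beyond their spread. PSMB5, the chymotrypsin-like subunit that bortezomib binds, had 260, 245 and 262 TPM in CBR-470-1, against 250, 243 and 263 TPM in DMSO. PSMB6, the caspase-like subunit, had 149, 142 and 142 TPM in CBR-470-1, against 138, 134 and 143 TPM in DMSO. PSMB7, the trypsin-like subunit, had 208, 206 and 209 TPM in CBR-470-1, against 201, 208 and 216 TPM in DMSO. In all 3 genes treated and control libraries overlapped. The 95% confidence intervals of the log2 fold change ran from -0.08 to 0.13 for PSMB5, from -0.04 to 0.16 for PSMB6 and from -0.09 to 0.09 for PSMB7.

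PSMB10, the inducible subunit above the minimum, had 20.4, 18.0 and 18.0 TPM in CBR-470-1, against 19.99, 22.9 and 21.0 TPM in DMSO (log2 fold change -0.17, limma adjusted p = 0.244). The groups overlapped through CBR-470-1 replicate 1. Of 14 listed interferon and antigen presentation genes 7 were tested, and 1 rose and 0 fell in limma, with 3 higher and 0 lower at an unadjusted p under 0.05. For HLA-B the log2 fold change was 0.31 (limma adjusted p = 0.194). TAP1, whose gene overlaps PSMB9, was at 0.0538, 0.0855 and 0 TPM in CBR-470-1 and at 0, 0.0211 and 0.0333 TPM in DMSO, and the limit on MHC rows given above holds for it.

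POMP, the chaperone that matures the beta rings of a new core, rose. It had 101, 109 and 104 TPM in CBR-470-1, against 90.0, 84.1 and 82.4 TPM in DMSO, without overlap. The log2 fold change was 0.29 (SE 0.0531, limma adjusted p = 0.0465). POMP (ENSG00000132963.7) spans 28659104 to 28678925 on the plus strand of chromosome 13, and no other annotated gene overlaps it. The other 4 core assembly chaperones, which pair up to build the alpha ring, had log2 fold changes below 0 and did not pass. PSMG4 had 14.5, 16.3 and 12.3 TPM in CBR-470-1, against 18.4, 15.4 and 18.0 TPM in DMSO (log2 fold change -0.26, limma adjusted p = 0.228). It overlaps TUBB2B and SLC22A23 on the other strand, the higher of them with a mean of 278 TPM. The limit on shared reads given for PSMC2 holds for PSMG4 too. PSMG3 had -0.16, PSMG1 -0.03 and PSMG2 -0.01.

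The activators, which cap the core in place of the 19S, and the inhibitor PSMF1 did not pass at the 1 TPM minimum. PSME4, the nuclear activator also called PA200, had 50.04, 54.7 and 56.1 TPM in CBR-470-1, against 44.5, 42.1 and 43.7 TPM in DMSO (log2 fold change 0.30, SE 0.0589, limma adjusted p = 0.0588). PSMF1, also called PI31, had 73.9, 81.4 and 80.3 TPM in CBR-470-1, against 84.6, 92.2 and 99.8 TPM in DMSO (log2 fold change -0.23, SE 0.0707, limma adjusted p = 0.120). Neither gene had overlapping groups, and PSMF1 and PSMD9 were the 2 genes whose treated libraries all lay below the controls. PSME2, a subunit of the interferon-inducible activator, had 0.20 (limma adjusted p = 0.0782). Its partner PSME1 had -0.01, with CBR-470-1 replicate 3 lowest of all 6 libraries. PSME3, a nuclear activator, had 0.05.

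**Figure D3:**
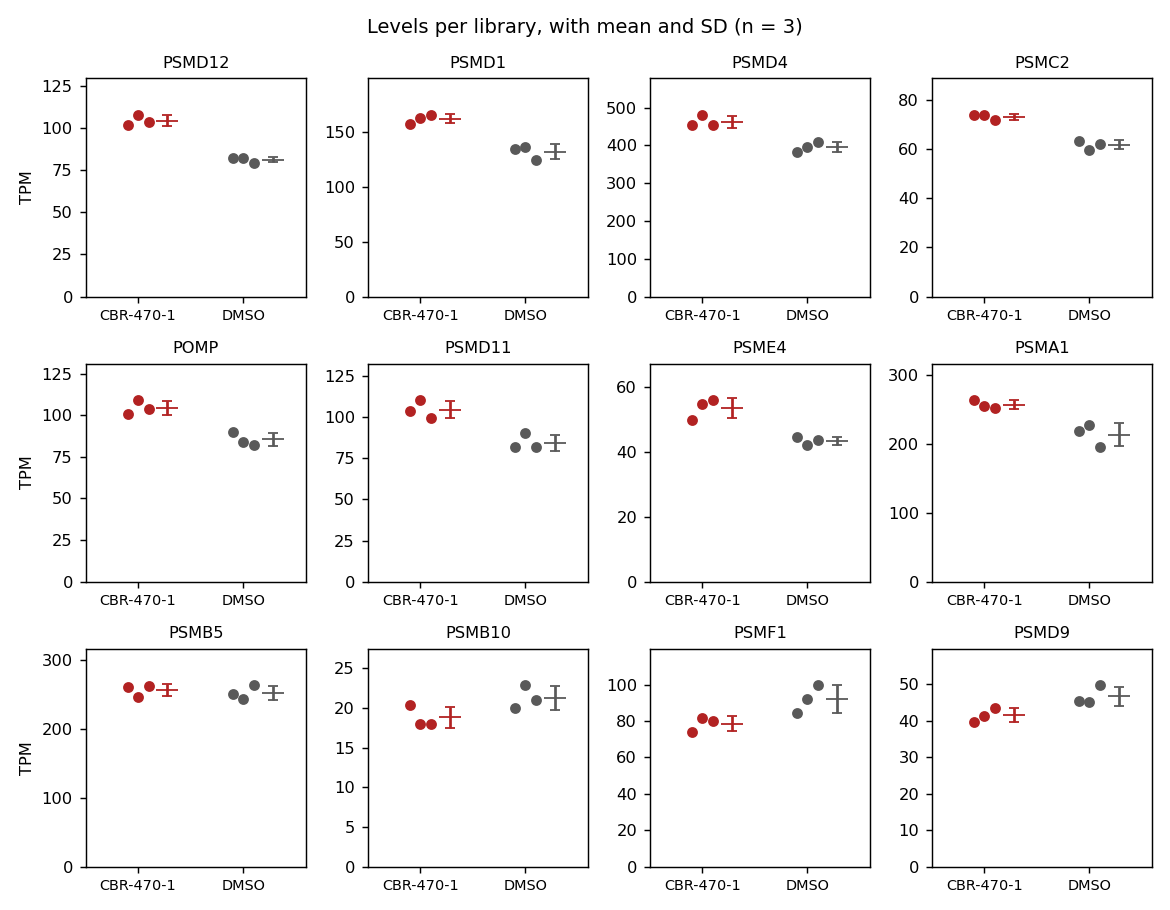
TPM of 12 proteasome genes in each library, CBR-470-1 left of DMSO in each panel, with the mean and SD of the 3 libraries beside the points and axes that start at 0. The first 5 panels are the genes that rose, and the last 4 show PSMB5, with overlapping groups, and PSMB10, PSMF1 and PSMD9, with lower means in CBR-470-1.

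The calls were close to the threshold, and leaving out any single library removed at least 4 of the 5. Without CBR-470-1 replicates 1, 2 or 3, which leaves 5 libraries, 0 of the 45 genes were called each time. Without DMSO replicates 1, 2 and 3, there were 1, 0 and 1 calls, in each case PSMD12. The log2 fold changes of the 5 called genes stayed positive in every one of these fits, between 0.20 and 0.38. With all 6 libraries but no variance trend in the fit, 0 of the 45 were called.

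Fold changes followed base composition, and this touched the proteasome genes. Over the 45 genes the Pearson correlation of the log2 fold change with the GC content of the longest transcript was -0.55, against -0.27 over the 13460 tested genes with a GC value. Genes share the same 6 libraries, so this is a description. Whether the longest transcript of a gene was the one expressed was not checked, and this limit also holds for the correction. For the alpha genes its length ran from 1023 bases in PSMA7 to 4730 in PSMA6. The 23 genes with the lower GC content, 32.0% to 47.9%, held 4 of the 5 calls and had a median log2 fold change of 0.16. The 22 with the higher GC content, 48.2% to 60.1%, held 1 call, PSMD4, and had a median of 0.04. All tested genes split at the same GC value had medians of 0.08 and -0.03. Of them, 95 of 6629 with the lower and 57 of 6831 with the higher GC content were called higher.

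After removal of a smooth trend with GC content and transcript length from each library, the proteasome genes of lower and higher GC content had medians of 0.09 and 0.06. The correlation with GC content was then -0.23. The calls of PSMD12, PSMD1, PSMD4 and POMP remained, with log2 fold changes of 0.26, 0.24, 0.26 and 0.23 and limma adjusted p-values of 0.0174, 0.0320, 0.0184 and 0.0291. PSMC2 shrank to 0.15 and lost its call (limma adjusted p = 0.145). The largest corrected value was that of PSMD11, 0.28, which was not called (limma adjusted p = 0.0538). The median of the 19S family was 0.12 after correction and 0.15 before it, that of the 20S core 0.05 and 0.08, and that of all tested genes -0.001 and 0.03.

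**Figure D4:**
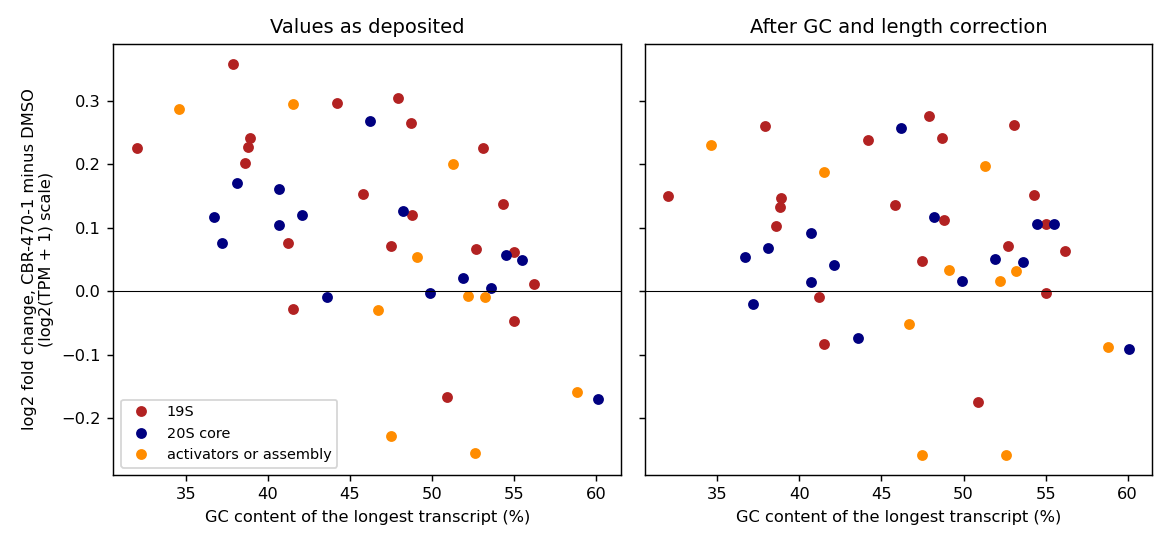
Log2 fold change of each of the 45 genes against the GC content of its longest transcript, with the values as deposited on the left and after the GC and length correction on the right, coloured by family. The downward slope on the left (r = -0.55) is shallower on the right (r = -0.23). On the right the called PSMD12, PSMD1, PSMD4 and POMP stay above 0.2, as do PSMD11, PSMA1 and PSMC1, which were not called.

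Genes that belong to the proteasome under other names, or work beside it, had mostly small positive fold changes. Of 13 associated genes outside the naming rule, 0 passed in limma, all 13 were positive and 7 were higher and 0 lower at an unadjusted p under 0.05 (13.8% and 9.65% of all tested genes), with a median of 0.14. After the GC and length correction the median was 0.08 and 1 gene passed, the ubiquitin receptor ADRM1 at 0.23 (limma adjusted p = 0.0331). UCHL5, IPO9 and TXNL1 were then negative, at -0.045, -0.033 and -0.001. Before correction the cap-bound deubiquitinase USP14, 1 of the 13, had 0.25 (limma adjusted p = 0.128). KIAA0368, which encodes the proteasome adaptor ECM29, had 0.24 (limma adjusted p = 0.0747). Of 10 shuttle and segregase genes 1 rose and 0 fell, with 5 higher and 0 lower at an unadjusted p under 0.05 and a median of 0.08, or 0.04 after the correction. The riser was VCP, the ATPase that extracts ubiquitinated proteins, with 234, 241 and 241 TPM in CBR-470-1, against 205, 199 and 199 TPM in DMSO (log2 fold change 0.25, limma adjusted p = 0.0267). NPLOC4, a cofactor of VCP, had 0.22 (limma adjusted p = 0.0778).

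Genes that supply and activate ubiquitin gave no call. Of 6 ubiquitin and E1 enzyme genes 0 passed in limma and 0 had an unadjusted p under 0.05, with a median of 0.001. The E1 gene UBA6 had a log2 fold change of 0.14. Of the 9 listed genes of the NRF1 route to proteasome transcription, 8 were tested, 0 passed in limma, and 2 were higher and 0 lower at an unadjusted p under 0.05. NFE2L1 had 241, 252 and 246 TPM in CBR-470-1, against 232, 214 and 234 TPM in DMSO (log2 fold change 0.12, limma adjusted p = 0.173). The groups did not overlap in NFE2L1. MAFG, a small partner protein of NRF1 and NRF2, had 0.29 (limma adjusted p = 0.0645), and it passed after the GC and length correction at 0.32 (limma adjusted p = 0.0292).

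Other multi-subunit complexes gave a frame for these sizes. Of 8 CCT chaperonin genes, 0 passed in limma, with 1 higher and 0 lower at an unadjusted p under 0.05 and a median of 0.04, which turned to -0.01 after the GC and length correction. Of 9 genes of the COP9 signalosome, a lid-like complex, 0 passed in limma, with 2 higher and 0 lower at an unadjusted p under 0.05 and a median of 0.06, or 0.04 after the correction. The median of the 20 genes of the 19S family was 0.15, or 0.12 after it. At an unadjusted p under 0.05, 13.8% of all tested genes were higher, so the CCT and COP9 counts at that cutoff lie near that share. Every CBR-470-1 library lay above every DMSO library in 4 of 8 CCT, 2 of 9 COP9 and, for the 19S, 13 of 20 genes. Every one lay below in 0, 2 and 1. The shares over all tested genes were 17.7% above and 12.5% below. The differences between the complexes were not tested.

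**Figure D5:**
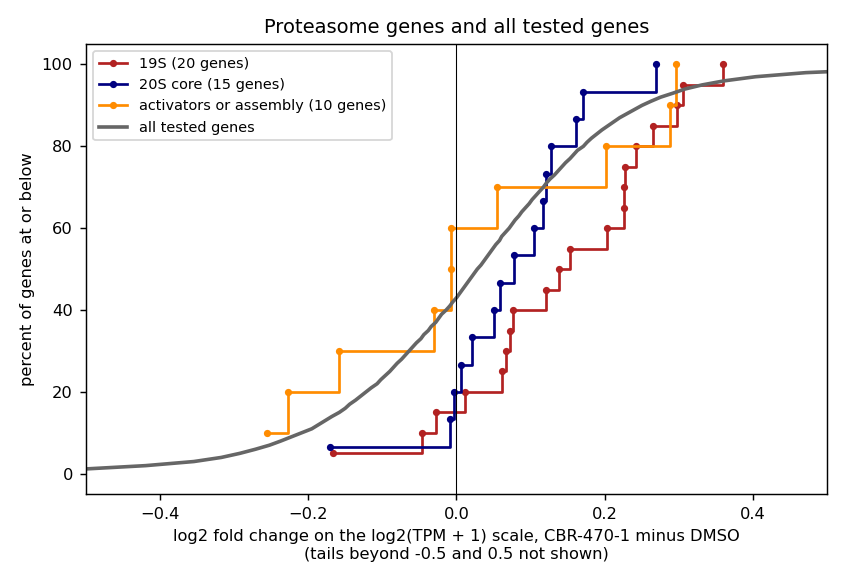
Cumulative share of genes (percent at or below) against the log2 fold change, CBR-470-1 minus DMSO, for the 19S family, the 20S core, the activator and assembly genes and all tested genes. The 19S curve lies right of the others over most of its range, with a median of 0.15 against 0.03 for all tested genes.

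The antioxidant response element, the DNA motif that NRF2 and NRF1 bind with small MAF proteins, was searched by its core letters TGACNNNGC on both strands of the promoter, 250 bases before to 50 after the transcription start, in RefSeq sequences on GRCh38.p14. Promoters were at hand for 39 of the 45 genes, and 14 of them (35.9%) held the letters. Among 9825 tested genes with a promoter sequence the share was 19.6%, and among all 35116 promoters of that length it was 13.4%. The genes with a match had a median log2 fold change of 0.07 with 2 of 14 called, and the 25 without a match had 0.12 with 2 called. A match is a run of letters and not a shown binding site. The matches in the called genes PSMD12 and PSMD1, in PSME4 and in PSMD9, whose treated libraries lay below the controls, are shown so that matches on both sides of 0 can be compared. The core letters are in capitals and each line reads 5′ to 3′ on the strand of the match.
PSMD12, chr17:67366724-67366752, minus strand, centre 161 bases before the start: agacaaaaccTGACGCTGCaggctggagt
PSMD1, chr2:231056888-231056916, plus strand, centre 43 bases after the start: gcggcctgaggaggcgacTGACTGAGCag
PSME4, chr2:53971009-53971037, plus strand, centre 30 bases before the start: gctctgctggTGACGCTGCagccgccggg
PSMD9, chr12:121888631-121888659, minus strand, centre 145 bases before the start: gcgcctgtggTGACCCGGCaggagtagcg
PSMD9, chr12:121888678-121888706, plus strand, centre 98 bases before the start: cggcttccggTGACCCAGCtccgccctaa
PSMD12 and PSME4 hold the same core letters, and PSMD9 holds 2 matches with a log2 fold change of -0.17. POMP and PSMC2, both called, hold no match in this window. For the called gene PSMD4 no promoter sequence was at hand, so it was not searched.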

How the data were processed

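PolyA-selected RNA was sequenced, according to the protocols in the labels. The authors deposited a single table of TPM values, with gene symbols as rows and libraries as columns. It was made with bcl2fastq and Salmon 0.7.2 on GRCh38, per the submitters' processing notes, and for the annotation and the Salmon settings the sources used here name nothing. TPM values are relative within a library, so increases of some genes push others down, and no counting error can be given because depth is unknown.

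Titles gave the groups, 3 CBR-470-1 and 3 DMSO libraries. limma 3.58.1 (R 4.3.3) was fitted to log2(TPM + 1) of the 13470 genes averaging 1 TPM or more, with group as factor and a variance trend in the empirical Bayes step. Tests were two-sided, with Benjamini-Hochberg adjustment over all 13470 genes, and genes under 0.05 were called. The log2(TPM + 1) scale understates changes of low genes, and ratios are of mean TPM. With 3 libraries a group, an exact permutation test has a minimum p of 0.1 and was not used. The fit was tested on simulated independent normal values. These held no GC trend, library shift or pairing, so the simulation does not bear on those.

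The genes and lists were chosen with earlier results of these data known. Per-library values are given for called genes, the catalytic subunits, POMP and the 2 largest fold changes per role group, and others were named after their values were seen. Values of a few listed genes are not reported here. GC content and length came from the longest GENCODE 29 transcript (34740 rows matched by name, 633 by synonym, 100 not). The correction removed a spline with 5 degrees of freedom for each. Also tried were 0.1 and 5 TPM as pseudocount, a filter of 5 TPM or none, median centring, quantile normalization, rescaling without mitochondrial and ribosomal protein genes, no trend, robust empirical Bayes, the replicate number as a block, leaving out each library, and an adjusted p under 0.01.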

Additional observations from a re-analysis of the deposited data

How the results depend on the processing

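The count of 5 proteasome genes called higher became 1 with no filter on low values, 10 with a mean of at least 5 TPM, 3 with median centring, 2 with quantile normalization, and 0 without a variance trend or at an adjusted p under 0.01. The count of all genes called, 265, became 82, 428, 361 and 239 in the first 4 of these settings, 83 without a variance trend and 22 at the stricter threshold. With the replicate block, the replicate number of the labels as a factor, 0 proteasome genes and 17 genes in all were called, and with the GC and length correction in the same fit 0 and 14. Same-numbered libraries did not deviate together (correlations of -0.14, -0.01 and -0.03). With 3 libraries a group, these values cannot show whether same-numbered cultures were handled as pairs. Leaving out 1 library gave 0 to 1 proteasome calls and 18 to 82 calls in all. No proteasome gene was called lower in any of these fits. The median log2 fold change of the 45 genes, 0.08, was 0.04 with median centring, which shifted all genes by -0.04, and 0.073 to 0.127 with 1 library left out.

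Genes near 0 changed sign. With median centring PSMB3, PSMB5 and PSMC3 had -0.032, -0.016 and -0.026, and with quantile normalization PSMB7 had 0.002. With the GC and length correction, alone and with the block, PSMA5, PSMB7, PSMD5, PSME1 and PSMG2 had -0.019, 0.017, -0.008, 0.032 and 0.017. With 1 library left out, the log2 fold change ran from -0.031 to 0.004 for PSMB2, -0.029 to 0.027 for PSMB3, -0.004 to 0.052 for PSMB5 and -0.028 to 0.021 for PSMB7. It ran from -0.008 to 0.033 for PSMC3, -0.007 to 0.129 for PSMD3, -0.05 to 0.252 for PSMD5 and -0.066 to 0.036 for PSMD10. For PSME1, PSMG1 and PSMG2 it ran from -0.086 to 0.093, -0.056 to 0.007 and -0.027 to 0.004. None of these genes was called in any fit. Over all alternatives, the 5 called genes kept the call in 35 of their values and lost it in 55, none changing sign. Of the 12 alternatives that used all 6 libraries and the 0.05 threshold, PSMD12 kept its call in 9 and PSMD1 in 8. POMP kept it in 7, PSMD4 in 6 and PSMC2 in 3. Among the genes not called, 682 values kept direction without a call, 5 gained a call and 32 changed sign. The causes were not tested.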
